A study of Mus musculus with 12 samples.

Results

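The 40 genes described here encode the enzymes and transporters of glycolysis, lactate handling, glycogen turnover and the pentose phosphate pathway. Their signals were set side by side in embryoid bodies made from the mouse embryonic stem cell line R1 and in undifferentiated R1 cells. The genes were chosen by a fixed list of symbols, and every probe set whose single platform gene symbol was on that list was taken. This gave 83 probe sets, 73 on array A and 10 on array B, for 37 of the 40 genes. No probe set carried Gpi1, Eno1 or G6pdx as its single symbol, so these genes were not analysed here. Gapdh was present only through control probe sets, which were left out of the fit, and Pgam2 lay below the filter on dim signals, which left 35 of the 16461 genes tested.

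R1 is a widely used embryonic stem cell line taken from a mouse blastocyst. Total RNA from 3 differentiated cultures or preparations (D1, D2 and D3) and 3 undifferentiated ones (U1, U2 and U3) was read on 12 Affymetrix arrays. Each RNA went on 1 MOE430A chip, called array A here, and 1 MOE430B chip, called array B. The labels name no genotype or agent and describe the medium alike for both groups, with serum and culture on bacterial Petri dishes for 5 days, so the difference in culture rests on the group names. Undifferentiated cells have an estimated purity of 95%, judged by eye. Nothing in the labels tells separate cultures from repeat preparations, and the p-values therefore cover only the variation among these RNAs, part or all of which may be technical.

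Glycolysis splits glucose into pyruvate in the cytosol. In the preparatory steps glucose is phosphorylated and cleaved, and in the triose steps the fragments are oxidised and yield ATP. Lactate dehydrogenase turns pyruvate into lactate, which leaves the cell through monocarboxylate transporters, while pyruvate dehydrogenase sends pyruvate to the mitochondria. The pentose phosphate pathway draws on glucose phosphate for NADPH and ribose, and glycogen stores it. Pluripotent mouse cells are known for strong glycolysis, and many glycolytic genes are known targets of the hypoxia-inducible factor HIF and of Myc.

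The labelled cell types were checked with marker genes. Of 10 pluripotent stem cell markers 1 fell and 9 did not pass, and Pou5f1 kept a log2 signal of 11.66 to 12.04 in the differentiated RNAs against 12.11 to 12.19 in the undifferentiated ones. The summed scaled signal of these markers was 25570 to 49736 in differentiated and 58829 to 69231 in undifferentiated RNAs. Dppa5a, by far the brightest, weighs most in this sum. It read 13.17, 14.45 and 14.58 in D1 to D3 against 15.02, 15.21 and 15.13 in U1 to U3. The median log2 difference of the 10 was -0.58, and 1 of them, Lin28a, lay above 0. Of 13 extraembryonic endoderm markers 8 rose and 12 lay above 0, with summed signals of 9972 to 11604 against 6128 to 6853. Sparc, the brightest, weighs most in this sum and went the other way without a call. It read 10.90, 11.45 and 11.54 in D1 to D3 against 11.56, 11.78 and 11.77 in U1 to U3. Among the 8 that rose, Apoa1 passed the filter on dim signals only through the differentiated RNAs (6.68, 5.29 and 5.00 in U1 to U3). Of 12 fibroblast markers 6 fell, with summed signals of 4685 to 6555 against 13363 to 15102. Of 9 muscle and heart markers 1 fell, of 10 neuron markers 2 fell, and of 5 liver markers 1 rose. That liver marker, Ttr, is also 1 of the 8 extraembryonic endoderm markers that rose. The muscle gene, Acta1, passed the filter only through the undifferentiated RNAs (6.73, 5.00 and 5.00 in D1 to D3). Of all genes 0.923% rose and 1.16% fell. The marker lists move with the groups, as all results below do, and their part in those results was not tested. D1 stood farthest from the rest on array A, with a median correlation of 0.881, and U2 on array B, with 0.697.

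In the differentiated RNAs 7 of the 35 tested genes rose and 0 fell. They were the phosphofructokinase gene Pfkl, the aldolase gene Aldoa, the triose phosphate isomerase gene Tpi1, the phosphoglycerate kinase gene Pgk1, the lactate dehydrogenase gene Ldha, the glycogen synthase gene Gys1 and the lactate transporter gene Slc16a1. The differences ran from 1.70-fold for Pgk1 to 5.70-fold for Gys1. A gene was called when its adjusted p was under 0.05 (limma with Benjamini-Hochberg adjustment over all probe sets of its array), read from the brightest tested probe set, array A before array B. Of all 16461 genes, 2.08% were called, 0.923% as higher and 1.16% as lower. Among the 1079 genes with a mean log2 signal of at least 11, 3.89% rose, against 6 of 15 members in that range. The median log2 difference was 0.26 over the 35 genes and 0.01 over all genes, and 26 of the 35 lay above 0, against 50.9% of all genes. These counts include Eno2, Pdk2, Gbe1 and Pygl, which passed the filter on dim signals only through the differentiated RNAs. Over the 31 members at the filter in both groups the median was 0.21, and 22 lay above 0 (71%). Of all genes treated alike, 50.7% lay above 0. At an unadjusted p under 0.05 in limma, 13 members, Pygl among them, were higher and 2 lower, against 5.95% and 6.67% of all genes. A list chosen with earlier results of these data known gives these counts no independent weight. In such bulk RNA, fewer cells of a type and less RNA per cell cannot be told apart.

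The calls depend on the variance model, the treatment of dim signals and whether the array lot enters the fit as a block. An effect of the lot itself was not tested. Without an intensity trend in the variance 0 members passed, against 0.34% of all genes. With the array lot as a block, which sets D1 to D3 against U1 alone, only Tpi1 passed, and 0.462% of all genes did. With a floor of 64 or with no filter on dim probe sets, only Pfkl and Tpi1 passed, against 0.709% and 0.66% of all genes, and Aldoa, Pgk1, Ldha, Gys1 and Slc16a1 lost their calls. With U3 left out, 4 members passed and Pgk1, Ldha and Gys1 did not. Against U1 alone, within 1 lot, the 7 genes were still higher, by 0.81 (Pfkl) to 2.07 (Gys1) on the log2 scale. The brightest probe sets of array A shifted as a whole. Of the 153 with a mean log2 signal of at least 14, 138 lay above 0 (90.2%), with a median difference of 0.22, against a median of 0.10 over the 140 at 13 to 14 and 0.08 over the 301 at 12 to 13. Pgk1, Ldha, Pkm, Slc2a3 and Gapdh lie at 14 or above, and their differences include whatever moved that range. Quantile normalization gives every array the same distribution of signals and lowered the difference of Pgk1 to 0.52 (limma adjusted p = 0.12) and of Ldha to 0.66 (adjusted p = 0.0263), while Aldoa kept 0.79 and Tpi1 1.07. On array A the fluidics station followed the groups exactly, and its effect cannot be told apart from that of the group.

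**Figure D1:**
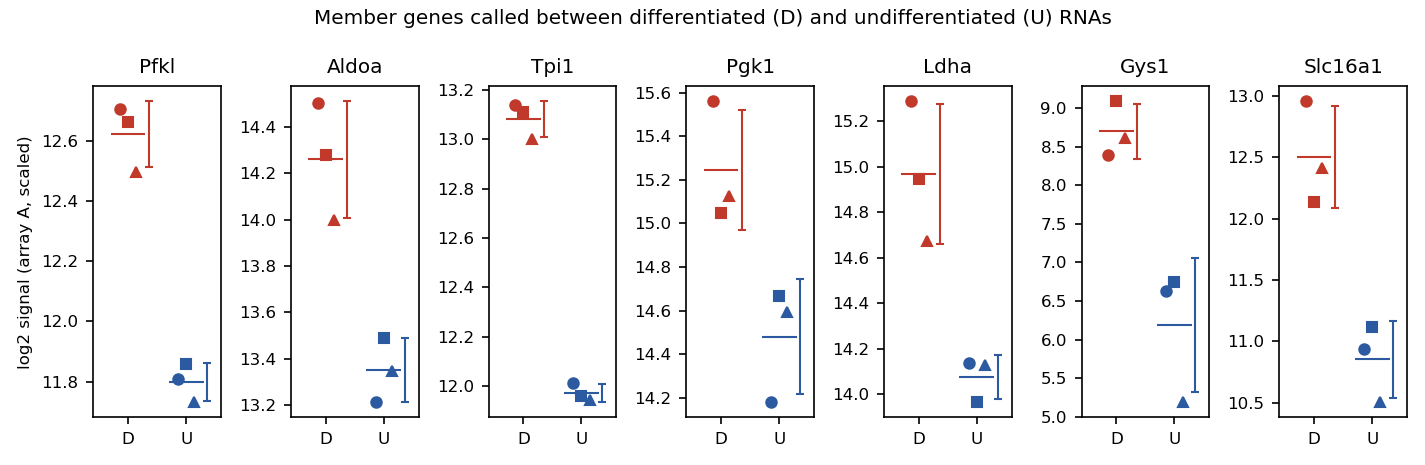
Log2 signal on array A (vertical axes, scaled MAS5 signal, each with its own range) of the 7 genes that rose, for the 3 differentiated (D, red) and 3 undifferentiated (U, blue) RNAs. Circle, square and triangle mark RNA 1, 2 and 3, horizontal lines the means and bars 1 SD; every D point lies above every U point of its gene.

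Pfkl encodes the liver type of phosphofructokinase, which commits sugar to glycolysis. Its log2 signal was 12.70, 12.66 and 12.50 in D1 to D3 and 11.81, 11.86 and 11.73 in U1 to U3. The groups lay well apart, with a narrow spread in each. The log2 difference was 0.82 ± 0.12 (SE, limma adjusted p = 0.00444), and a further probe set of array A gave 0.76 (adjusted p = 0.00589). The Pfkl probe set on array B had a log2 difference of -0.03 and overlapping groups, so it did not show the change.

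The other phosphofructokinase genes did not pass. Pfkm, the muscle type, had a log2 difference of 0.21 ± 0.17 (SE), and Pfkp, the platelet type, had 0.02 ± 0.21 (SE). Hk1 and Hk2 encode hexokinases, which trap glucose in the cell. Hk1 read 9.79, 10.49 and 10.26 in D1 to D3 and 9.33, 9.49 and 9.13 in U1 to U3. Its groups did not overlap, yet the difference of 0.86 ± 0.21 (SE) fell short of the threshold (limma adjusted p = 0.0579). A dimmer Hk1 probe set had overlapping groups and a difference of 0.37. Hk2 had 0.34 ± 0.14 (SE, adjusted p = 0.276), again with every differentiated RNA above every undifferentiated one.

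Pfkfb3 makes the sugar bisphosphate that activates phosphofructokinase, and its probe sets disagreed. The brighter one read 8.03, 7.72 and 7.70 in D1 to D3 and 8.10, 7.85 and 7.94 in U1 to U3, with overlapping groups and a difference of -0.15. The other had a difference of 1.08 with groups apart, and neither passed (limma adjusted p = 0.887 and 0.298). On this evidence no direction can be given for Pfkfb3.

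Aldoa encodes aldolase A, which cleaves the sugar bisphosphate into trioses. Its brightest probe set read 14.50, 14.28 and 13.998 in D1, D2 and D3, against 13.21, 13.49 and 13.35 in U1, U2 and U3. The groups were apart, and D1 was highest. The difference was 0.91 ± 0.15 (SE, limma adjusted p = 0.00838). All 4 Aldoa probe sets of array A rose, by 0.76 to 0.91. These 4 are of the kind marked x, in which some probes match other sequences, so signal from near copies of the gene cannot be separated. The Aldoa probe set of array B had a difference of 0.24 and overlapping groups. Aldoc, the brain type, read 10.29, 9.34 and 9.25 against 8.62, 8.97 and 8.79, and its difference of 0.84 ± 0.28 (SE) did not pass (adjusted p = 0.167). A second Aldoc probe set lay at the signal floor on all 6 arrays.

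Tpi1 encodes the isomerase that makes both trioses usable. Its log2 signal was 13.14, 13.11 and 13 in D1, D2 and D3, and 12.01, 11.96 and 11.94 in U1, U2 and U3. No other member had a smaller adjusted p. The difference was 1.11 ± 0.11 (SE, limma adjusted p = 0.000636), and all 3 Tpi1 probe sets rose, by 0.92 to 1.12. The brightest is of the kind marked x, and the others are not. Tpi1 passed with each RNA left out in turn and in 18 of the 19 alternatives tried, the exception being the fit without an intensity trend (adjusted p = 0.0637).

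Gapdh encodes the dehydrogenase of the next step and was read by 3 control probe sets on each array, placed towards the 5′ end, the middle and the 3′ end of the transcript. On array A the 5′ set read 15.47, 15.56 and 15.46 in D1 to D3 and 15.06, 15.18 and 15.08 in U1 to U3. All 3 sets had every differentiated RNA above every undifferentiated one there, by 0.33 to 0.39 on the log2 scale, beside the median of 0.22 for probe sets of that brightness. With the controls kept in the fit none of them passed (limma adjusted p = 0.167 to 0.293). On array B the groups overlapped for all 3 sets, the differences lay between -0.01 and 0.07, and U2 was highest. The log2 difference between the 3′ and the 5′ set, a sign of RNA integrity, on array A was 0.17 for D1, -0.32 for both D2 and D3, and -0.13 for each of U1, U2 and U3. D1 thus stood apart on array A. On array B it was again the highest, at -0.12, beside -0.25 to -0.14 in the other RNAs. Without D1, 7 members were called, with Hk1 in place of Pgk1.

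**Figure D2:**
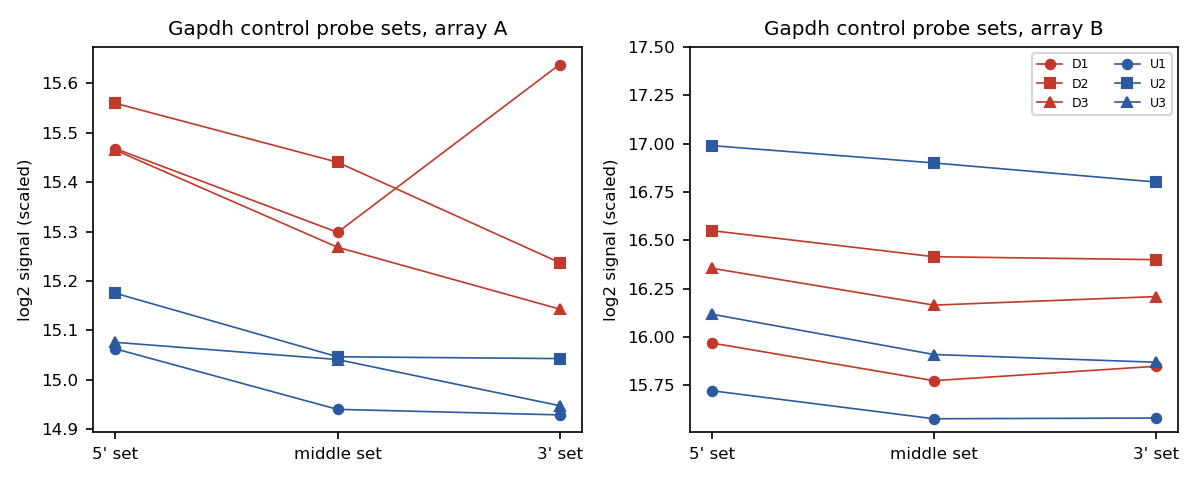
Log2 signal (vertical axes, scaled, not starting at 0) of the 3 Gapdh control probe sets from the 5′ to the 3′ end on array A (left) and array B (right), with 1 line per RNA (red D, blue U). On array A all D lines lie above all U lines and D1 rises towards the 3′ set; on array B the groups are mixed and U2 is highest.

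Pgk1 encodes phosphoglycerate kinase, the first step that yields ATP. The brightest probe set read 15.56, 15.05 and 15.13 in D1 to D3 and 14.18, 14.67 and 14.59 in U1 to U3. The groups were apart by a small margin between D2 and U2. The difference was 0.77 ± 0.18 (SE, limma adjusted p = 0.0466), and leaving out any 1 of the 6 RNAs ended the call. Another Pgk1 probe set rose by 1.04 ± 0.16 (SE, adjusted p = 0.00739), and the dimmest had 0.87 (adjusted p = 0.0573). The brightest and the dimmest are of the kind marked x, and the one that rose by 1.04 is not.

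The remaining triose steps did not pass. Pgam1, a phosphoglycerate mutase, read 13.27, 12.68 and 12.90 against 12.32, 12.44 and 12.28. Its groups were apart, and the difference was 0.61 ± 0.15 (SE, limma adjusted p = 0.0656). Pkm, which encodes pyruvate kinase, read 14.36, 14.30 and 14.33 against 14.18, 13.92 and 13.91. Its groups too were apart, with a difference of 0.33 ± 0.12 (SE, adjusted p = 0.222), which became 0.13 with quantile normalization. Eno2, the neuronal enolase, was dim and variable at 6.68, 7.05 and 6.35 against 5.19, 6.86 and 5.27, with overlapping groups. Eno3, the muscle enolase, had a difference of -0.10, and Pgam2, the muscle mutase, read 5.23 to 5.75 in all 6 RNAs, close to the log2 floor of 5.

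**Figure D3:**
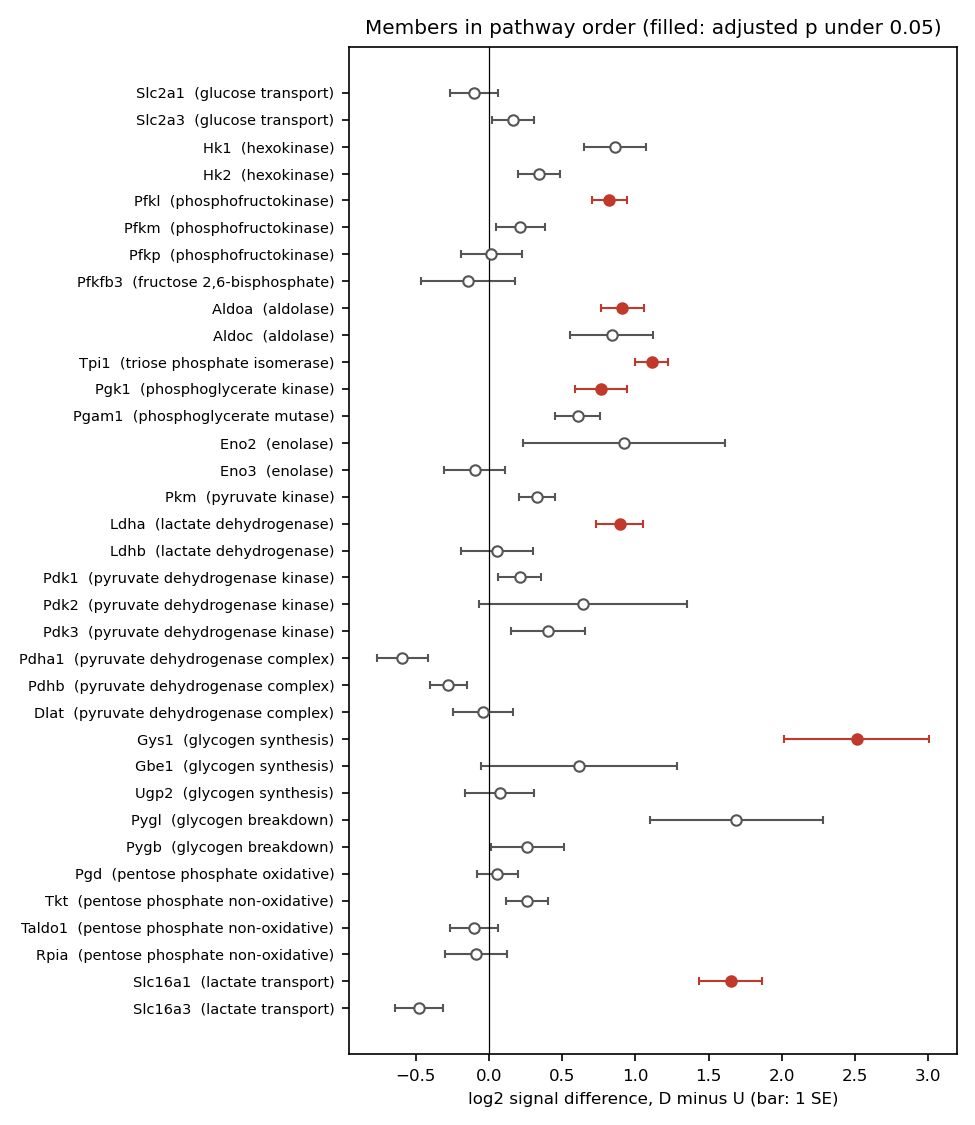
Log2 signal difference, D minus U (horizontal axis), with 1 SE as the bar, for the 35 tested genes in pathway order. Filled red points are the 7 called genes, all to the right of 0; the pentose phosphate genes lie near 0.

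Ldha encodes the lactate dehydrogenase subunit that prevails in glycolytic tissue. It read 15.29, 14.95 and 14.67 in D1, D2 and D3 and 14.14, 13.97 and 14.13 in U1, U2 and U3. The groups were clearly apart, and D1 was highest. The difference was 0.89 ± 0.16 (SE, limma adjusted p = 0.0137), a call that was lost without U2 (0.0853) and without U3 (0.0616). Ldhb, the subunit prevailing in heart, read 12.27, 12.72 and 12.38 against 11.77, 12.93 and 12.51, and its groups overlapped (difference 0.05 ± 0.25, SE). Of its 4 probe sets, 0 passed.

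Pyruvate dehydrogenase and its kinases gave no calls. Pdha1, which encodes a catalytic subunit of the complex, read 10.83, 11.49 and 11.43 in D1 to D3 and 11.84, 11.78 and 11.91 in U1 to U3. Every differentiated RNA was below every undifferentiated one, with a difference of -0.59 ± 0.17 (SE, limma adjusted p = 0.111). A second Pdha1 probe set had -0.06 and overlapping groups. Pdhb, its partner subunit, had -0.28 ± 0.13 (SE, adjusted p = 0.319) with groups apart, and Dlat, the acetyltransferase of the complex, had -0.04. Pdk1, Pdk2 and Pdk3 encode kinases that switch the complex off. Their differences were 0.21, 0.64 and 0.40, and Pdk2 was dim, at 5.71, 7.01 and 7.16 against 6.47, 5.00 and 6.48, with U2 at the floor. Groups were apart, with the differentiated RNAs above, for Pdk3 and for a dimmer Pdk1 probe set on array B (difference 0.51, adjusted p = 0.841), and 0 of the kinases' probe sets passed.

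Lactate leaves or enters cells through the monocarboxylate transporters. Slc16a1, which encodes MCT1, read 12.96, 12.14 and 12.42 in D1, D2 and D3 and 10.94, 11.11 and 10.50 in U1, U2 and U3. The lowest differentiated RNA lay above the highest undifferentiated one by more than the range within either group. The difference was 1.65 ± 0.22 (SE, 3.14-fold, limma adjusted p = 0.00313), and the call held with each RNA left out, but not with a floor of 64 (adjusted p = 0.09) or without the filter on dim probe sets (0.0784). A second Slc16a1 probe set on array B was near the floor, with overlapping groups and a difference of -0.31 (adjusted p = 0.915). Slc16a3, which encodes MCT4, read 11.56, 12.02 and 11.77 against 11.99, 12.47 and 12.34. Its groups overlapped only through D2 and U1, and the difference of -0.48 ± 0.16 (SE) did not pass (adjusted p = 0.17).

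Glucose enters through Slc2a1 (GLUT1) and Slc2a3 (GLUT3), and neither passed the test. Slc2a3 read 15.03, 14.60 and 14.61 against 14.67, 14.56 and 14.53, with overlapping groups and a difference of 0.16 ± 0.15 (SE, limma adjusted p = 0.671), which became -0.09 with quantile normalization. Slc2a1 had -0.10 ± 0.17 (SE), and of the 7 probe sets of both genes 0 passed and 0 had groups apart.

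Gys1 encodes the muscle form of glycogen synthase, which lengthens glycogen chains. It read 8.40, 9.09 and 8.61 in D1, D2 and D3 and 6.63, 6.75 and 5.19 in U1, U2 and U3. The undifferentiated RNAs were dim and spread over more than 1 log2 unit, with U3 next to the floor. The difference was 2.51 ± 0.50 (SE, limma adjusted p = 0.0229). The call was lost without D2 (adjusted p = 0.101), without D3 (0.0856) or without U3 (0.0512). A second Gys1 probe set read 6.64, 7.32 and 7.87 against 5.48, 7.42 and 5.00, with overlapping groups (adjusted p = 0.43).

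Other glycogen genes did not pass. Pygl, the liver form of glycogen phosphorylase, which releases glucose phosphate from glycogen, read 8.08, 7.27 and 7.32 against 6.57, 6.04 and 5.00. Its groups were apart, with U3 at the floor, and the difference was 1.69 ± 0.59 (SE, limma adjusted p = 0.183). Pygb, the brain form, had 0.26 ± 0.25 (SE). Gbe1, the branching enzyme, had 0.61 ± 0.67 (SE), and Ugp2, which makes the UDP-glucose used by glycogen synthase, had 0.07 ± 0.23 (SE).

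Of the 4 tested pentose phosphate genes 0 passed, and the brightest probe sets differed by -0.11 to 0.26 on the log2 scale. Pgd, the second dehydrogenase of the oxidative branch, read 10.58, 10.77 and 10.73 against 10.77, 10.63 and 10.51, a difference of 0.06 ± 0.14 (SE). Its other probe sets had -0.35, 0.32 and 0.06, so they did not share a direction. Tkt, a transketolase, read 12.52, 12.05 and 12.15 against 12.00, 12.01 and 11.93. Its groups were apart by a narrow margin, with a difference of 0.26 ± 0.14 (SE, limma adjusted p = 0.427). Taldo1, transaldolase, had -0.11 ± 0.16 (SE), and Rpia, the ribose phosphate isomerase, had -0.09 ± 0.21 (SE). A p that misses the threshold does not show that these levels were equal.

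By stage, 2 of 8 tested genes of the preparatory steps rose (median log2 difference 0.58), as did 1 of 4 transporters (median 0.03) and 0 of 4 pentose phosphate genes (median -0.02). In the triose steps 2 of 6 rose, in pyruvate and lactate metabolism 1 of 8 and among the glycogen genes 1 of 5. No median is given for these stages, since Eno2, Pdk2, Gbe1 and Pygl passed the filter only through the differentiated RNAs. Without these 4 genes the median over the remaining 31 members was 0.21, with 0.01 over all genes treated alike, and 7 were called. Groups were apart with the differentiated RNAs above for 15 of the 35 genes, against 9.16% of all genes, and below for 2, against 9.25%. The 15 include Pygl. Without the 4 genes the differentiated RNAs lay above for 14 of 31, against 8.89% of all genes treated alike. On array A 14 of 65 tested member probe sets rose and 0 fell, where 1.31% of all probe sets rose, 1.56% fell and 2.87% were called. On array B 0 of 6 were called, where 0.0197% of all were, and 0 of the 6 had an unadjusted p under 0.05 in limma, against 5.24% of all. Array B thus made hardly any calls for any gene.

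Among the differentiated RNAs D1 was highest for 6 of the 7 called genes and D2 for Gys1. Set against the undifferentiated mean, the median log2 deviation of the 7 genes was 1.17, 0.93 and 0.70 for D1, D2 and D3. In U1, U2 and U3 it was 0.04, 0.14 and -0.03. Over the 28 tested genes without a call the medians were 0.11, 0.25 and 0.13 in D1, D2 and D3, so D1 did not lead there.

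**Figure D4:**
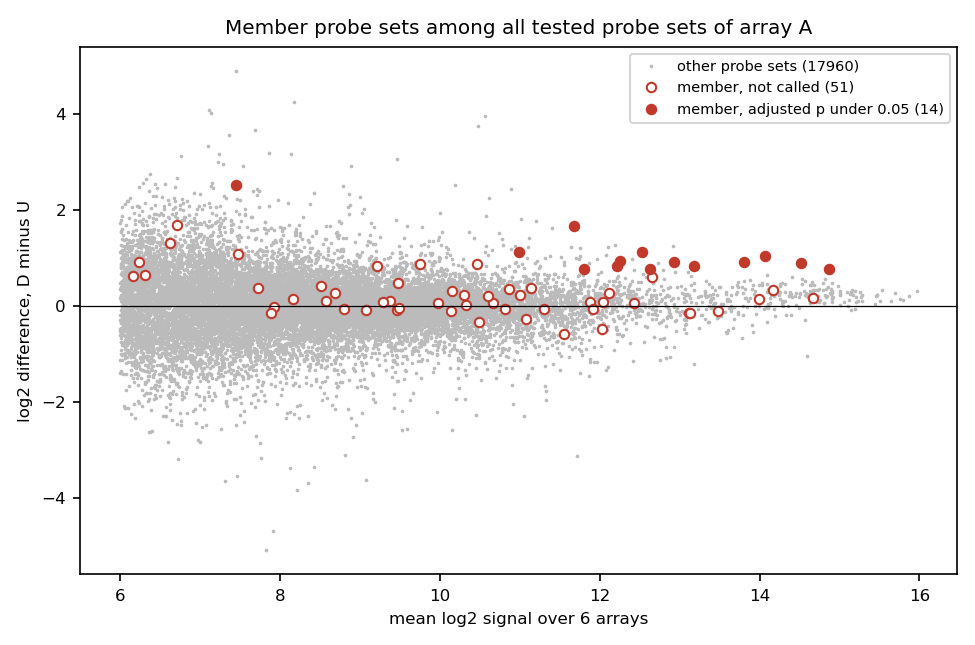
Log2 difference, D minus U (vertical axis), against mean log2 signal (horizontal axis) for the 18025 tested probe sets of array A; grey dots are other probe sets, open circles 51 member probe sets without a call and filled circles the 14 that rose. All filled circles except the one of Gys1 lie at a mean signal close to or above 11.

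Whether isoforms of 1 step moved by different amounts was tested on the log2 ratio of their probe sets in each RNA. Of 13 pairs listed, 10 could be tested, since 3 involve Eno1 or Pgam2. The ratio of Slc16a3 to Slc16a1, set to a mean of 0 in the undifferentiated RNAs, was -2.81, -1.53 and -2.06 for D1 to D3 against -0.36, -0.06 and 0.42 in U1, U2 and U3. That is a shift of -2.13 (exact permutation p = 0.1, two-sided, adjusted p = 0.25 over the 10 pairs). It rests largely on Slc16a1, which rose by 1.65 and was called above, and is not a separate result. Slc16a3 itself had -0.48 with overlapping groups. The ratio of Pfkm to Pfkl shifted by -0.61 and that of Pfkp to Pfkl by -0.81, each with the same exact permutation p = 0.1; both rest on the Pfkl probe set and are not separate results. The groups were apart for Pygb to Pygl as well, but Pygl was at the floor in U3 and passed the filter only through the differentiated RNAs, so the size of that shift is not given. With 3 RNAs against 3, 0.1 is the smallest p the test allows, so no pair could pass. Groups apart in a ratio have no share over all genes beside them here, and single genes were apart in 9.16% (higher) and 9.25% (lower) of cases. The ratio of Ldhb to Ldha shifted by -0.84, with U1 (-0.70) inside the range of the differentiated RNAs (exact permutation p = 0.3). For the other 5 pairs the groups overlapped, with shifts of -0.52 to 0.43.

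**Figure D5:**
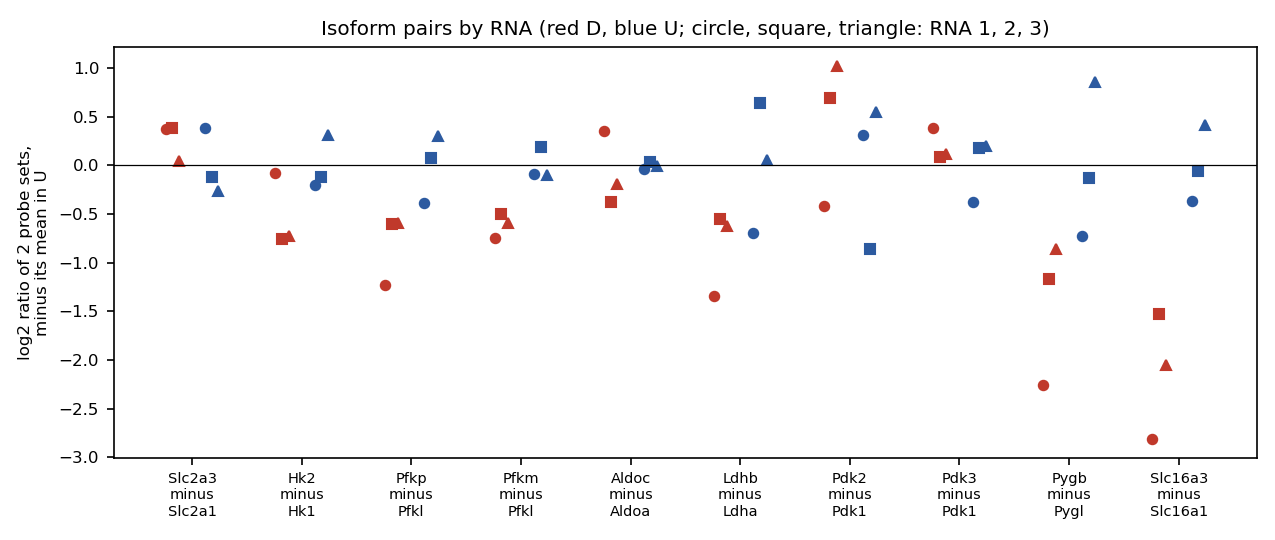
Log2 ratio of the probe sets of 2 isoforms on array A, minus its mean over the undifferentiated RNAs (vertical axis), for 10 pairs (red D, blue U, 1 point per RNA). The groups do not overlap for Pfkp and Pfkm against Pfkl, Pygb against Pygl and Slc16a3 against Slc16a1.

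Other genes of the same pathways gave no calls when each was read from its brightest probe set, as above. Only 2.08% of all genes were called, and at that share lists of this size would hold few calls or none. Among 27 further glycolysis, pyruvate and lactate genes 0 were called (median log2 difference -0.15). At an unadjusted p under 0.05 in limma 3 were higher and 1 lower, against 5.95% and 6.67% of all genes. No calls were made either for 18 further glycogen genes, 9 further pentose phosphate genes or 7 gluconeogenesis genes. At the same unadjusted p, 1 glycogen gene was higher and 1 lower. For the pentose phosphate genes these counts were 1 and 1, and for the gluconeogenesis genes 1 and 0. Some missed narrowly, such as Emb of the first list (0.56, limma adjusted p = 0.064) and Pgm1 of the glycogen list (1.05, adjusted p = 0.0536). A dimmer Emb probe set of array A did pass (0.77, adjusted p = 0.0172). Of 19 hypoxia-responsive genes outside glycolysis 3 rose, 0 fell and 16 did not pass (median 0.63, 15 above 0), where 0.923% of all genes rose. At an unadjusted p under 0.05 in limma, 11 of the 19 were higher and 0 lower, against 5.95% and 6.67% of all genes. Bnip3, a mitophagy receptor, read 11.71, 11.31 and 11.48 against 9.93, 9.98 and 10.01, a difference of 1.52 ± 0.15 (SE, limma adjusted p = 0.00052). Ddit4, which restrains mTORC1, rose by 1.77 ± 0.27 (SE, adjusted p = 0.00574), and Ndrg1, a stress-responsive gene, by 1.42 ± 0.29 (SE, adjusted p = 0.0274). Of 18 regulators 1 was called: Mycn, the Myc family gene prominent in stem cells, fell by 0.76 ± 0.17 (SE, adjusted p = 0.041). Hif1a, which encodes the oxygen-regulated subunit of HIF, had a difference of 0.22 ± 0.25 (SE) at the transcript level.

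Promoter windows of 4 members that rose and of Slc16a3, which did not, are shown for the letters of the HIF core, which also lie within the Myc-type E-box. The RefSeq windows (GRCm38.p6) run from 250 bases before to 50 after a gene's start, and 39 of the 40 genes had at least 1. Both strands were searched for ACGTG and GCGTG. The E-box CACGTG holds ACGTG on each strand and was counted once. These letters were present in any window for 32 of 39 members (82.1%) and for 46.7% of all 27025 genes with a window. Genes with more windows have more room for a match. Counted by window, the letters were present in 72.7% of the members' 55 windows and in 43.8% of all 32851. Of the 7 genes that rose 5 had the letters, and of the other 32 members 27 did. An E-box was present for 5 of 39 members (12.8%), against 8.09% of all genes. These were 2 of the 7 genes that rose and 3 of the other 32 members. The core contains CG, and no matching for base composition was made. The genes shown are Gys1, Slc16a1 and Tpi1, which rose by the most, and Slc16a3 and Ldha from isoform pairs described above. Not every such gene is shown. Aldoa, which rose by 0.91 against 0.89 for Ldha, had at most 1 match in a window. Pfkl, also of the described pairs, had 1 match, and neither gene had an E-box. In the sequences capitals mark a match, and the sequences run 5′ to 3′ on the gene's strand. Slc16a1 (chr3:104638414-104638713, plus strand) had 4 matches, 1 of them an E-box. Slc16a3 (chr11:120948817-120949116, plus strand), its partner in the pair that shifted most, had 2, none an E-box. Ldha (chr7:46845554-46845853, plus strand, the first of its 2 windows) had 5, of which 2 are E-boxes. Tpi1 (chr6:124814109-124814408, minus strand) and Gys1 (chr7:45434589-45434888, plus strand), with the smallest p and the largest difference among members, had 0 in these windows. A match is a description of letters, not of a bound site.
Slc16a1: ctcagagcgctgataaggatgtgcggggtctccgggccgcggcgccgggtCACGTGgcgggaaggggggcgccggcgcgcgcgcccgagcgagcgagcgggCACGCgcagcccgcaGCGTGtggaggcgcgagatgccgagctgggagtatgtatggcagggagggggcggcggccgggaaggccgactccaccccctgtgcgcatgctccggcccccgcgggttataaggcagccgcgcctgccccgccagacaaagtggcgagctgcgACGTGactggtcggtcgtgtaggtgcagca
Slc16a3: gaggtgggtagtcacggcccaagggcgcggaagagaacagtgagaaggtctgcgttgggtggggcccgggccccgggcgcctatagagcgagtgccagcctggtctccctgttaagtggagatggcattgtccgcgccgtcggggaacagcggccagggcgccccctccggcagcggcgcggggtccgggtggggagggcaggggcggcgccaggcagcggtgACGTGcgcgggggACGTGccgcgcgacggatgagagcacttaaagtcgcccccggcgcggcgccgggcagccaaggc
Ldha: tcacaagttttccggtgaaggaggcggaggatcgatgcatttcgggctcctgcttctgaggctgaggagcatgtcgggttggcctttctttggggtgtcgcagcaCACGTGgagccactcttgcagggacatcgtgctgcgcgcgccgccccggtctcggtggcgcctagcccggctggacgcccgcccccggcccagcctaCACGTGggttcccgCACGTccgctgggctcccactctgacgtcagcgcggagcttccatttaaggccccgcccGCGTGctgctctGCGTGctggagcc
Tpi1: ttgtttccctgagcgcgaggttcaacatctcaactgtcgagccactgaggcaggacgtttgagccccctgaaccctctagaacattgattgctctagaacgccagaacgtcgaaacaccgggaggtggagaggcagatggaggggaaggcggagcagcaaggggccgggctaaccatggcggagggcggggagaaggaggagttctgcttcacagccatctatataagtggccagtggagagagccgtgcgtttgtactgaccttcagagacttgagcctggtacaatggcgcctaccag
Gys1: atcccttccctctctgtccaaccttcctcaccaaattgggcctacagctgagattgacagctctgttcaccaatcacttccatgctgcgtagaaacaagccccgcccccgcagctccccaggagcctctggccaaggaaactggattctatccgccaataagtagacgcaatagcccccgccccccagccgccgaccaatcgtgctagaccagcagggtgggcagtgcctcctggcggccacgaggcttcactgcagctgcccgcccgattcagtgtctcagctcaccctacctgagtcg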

How the data were processed

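The authors deposited linear signal intensities made with MAS5, per the submitters' processing notes. No version, scaling target or genome build is given in the sources used here. The 2% trimmed mean of the deposited signals was 1500.1 to 1500.5 on every array, so each had been scaled to a common mean, which hides any change in total RNA. Array lot and fluidics station came from the deposited settings of each array.

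Signals of each array were rescaled to a 2% trimmed mean of 500 and put on the log2 scale after raising any below 32 to that floor. Control probe sets were left out, as were those whose log2 signal averaged below 6. Differentiated and undifferentiated RNAs were compared with limma 3.58.1 in R 4.3.3 (lmFit, eBayes with an intensity trend), two-sided, for each array type alone. Benjamini-Hochberg adjustment ran over all 18025 tested probe sets of array A and all 20344 of array B, with a threshold of 0.05. A floor understates the change of dim genes, no detection calls were used, and the number of arrays limits the precision. Symbols came from the platform annotation, and promoters from RefSeq (GRCm38.p6). Isoform ratios were compared with a two-sided exact permutation test. The alternatives covered scaling, floor, filter, variance trend, adjustment, probe set choice, blocks and leaving out each RNA. The fit was tested on simulated data.

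The members, pathway steps, isoform pairs and other lists were chosen with earlier results of these data known. A member is given its signal in every RNA where its brightest probe set was called and, for a step with no call, the member with the largest difference. For other lists up to 3 called genes are named. Further values, such as those of Aldoc, Ldhb and Slc16a3, were chosen after they were seen, as was the summary of all probe sets by brightness.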

Additional observations from a re-analysis of the deposited data

Results flagged for a closer look

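The 18 hybridisation control probe sets read RNAs added to each sample and lie outside the comparison. Their mean in D1 on array A exceeded that of every undifferentiated RNA, the nearest by 0.807 on the log2 scale. D1 was also the highest differentiated RNA for 6 of the 7 members that rose. Without D1 the number of members called was again 7. Groups of 3 RNAs are too small for a test of outlying values.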

How the results depend on the processing

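With the 19 alternatives tried, the median difference of the members stayed above 0 and no called member was called in the other direction. The number of member genes called, 7, changed by more than 1.5 times to 2 with a floor of 64, 2 without a filter on dim probe sets, 0 without an intensity trend, 1 with the lot or station block, and ranged from 4 to 7 with each RNA left out. On array A the 14 member probe sets became 6 with a floor of 64, 6 without the filter, 0 without the trend and 1 with the block. The median of 0.26 became 0.33 with the next probe set of each gene and 0.23 to 0.31 with each RNA left out. The count of isoform pairs with groups apart, 4, ranged from 4 to 7 without each RNA, which says nothing about stability, since leaving out an RNA cannot make separate groups of the same probe sets overlap. With quantile normalization Pgk1 lost its call (0.52, adjusted p = 0.12). Slc16a1 turned to -0.31 with its next probe set, which lies on array B. Without the intensity trend all genes share a variance prior that does not follow signal, and the block leaves U1 as the only undifferentiated RNA; beyond this the causes were not tested. Pgk1 passed in 5 of 19 alternatives, Gys1 in 10 of 18, Ldha in 13, Slc16a1 in 14, Aldoa in 15, Pfkl in 17 and Tpi1 in 18 of 19. For 10 members that were not called the sign changed in at least 1 alternative.

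Whether the replicate numbers pair the RNAs is not settled by the labels. Deviations of same-numbered RNAs correlated weakly, by 0.0123 to 0.157 on array A and by 0.0966 to 0.183 on array B. With the replicate block 8 member genes were called, the additional one being Hk1 (limma adjusted p = 0.0368), and 2.83% of all genes were, against 2.08% without it. Keeping the control probe sets in the fit was chosen after seeing the data and gave 6 member genes, without Pgk1 (adjusted p = 0.0554). So was keeping only members at the filter in both groups, which gave 7 member genes and a median of 0.21 over 31.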
